A study of Mus musculus with 15 samples.

Results

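The 35 genes described here are genes of astrocytes, the star-shaped support cells of the brain. They were chosen by symbol: 28 serve the everyday work of astrocytes (uptake of transmitter, channels and junctions, metabolism, cell identity), 5 are known for higher levels in reactive astrocytes, and 2 encode metallothioneins. All 35 were found among the 54232 gene identifiers of the count table, and 34 of them were among the 18278 genes with enough counts to be tested. The exception was Mt2.

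RNA from the striatum of 15 mice aged 6 months was sequenced, with 1 library per mouse. The groups were WT (7 mice), E1 (4 mice) and KI-96 (4 mice), and genotype was the only factor the labels gave. The study's title names knock-in mice modelling Huntington's disease and asks about harm from repeat-associated non-AUG translation, which reads an expanded repeat with no start codon. The labels name E1 and KI-96 as genotypes without describing their alleles, repeat lengths or strain, and no treatment was listed for any group.

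Astrocytes clear glutamate and GABA from around synapses, buffer extracellular potassium, and are coupled to each other through gap junctions. After injury or in disease they can become reactive, with more intermediate filament protein and secreted inhibitors or complement factors. In Huntington's disease models the potassium channel Kir4.1 and the glutamate transporter GLT-1 of striatal astrocytes are often studied. Several of the genes are also expressed by other cells: Cst3 by microglia, Vim by vessel cells and C4b by oligodendrocytes.

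Total counts per library ran from 14678565 to 26388542. Several features of the libraries touch the results. The summed level of 4 Y-linked genes was 0 to 0.132 CPM (counts scaled by normalized library size to a common total) in WT replicate 1 and in every E1 and KI-96 library, and 158 to 205 CPM in WT replicates 2 to 7. Genotype and the presence of Y-linked RNA can therefore hardly be told apart, since only 1 WT library lacked it. The mean log2 CPM of 15 markers of cortical excitatory neurons stood at 5.92 for WT replicate 3 and at 6.06 and 5.43 for replicates 2 and 3 of E1, against 2.53 to 3.77 in the other 12 libraries. KI-96 replicate 3 lay at -73.0 on the first principal component, and the other 14 libraries lay between -23.1 and 34.7. The 7 markers of thalamus and septum, which border the striatum, had a mean log2 CPM of 4.07 in KI-96 replicate 3 and 4.90 in KI-96 replicate 4, against 2.97 to 3.97 in the other libraries. In KI-96 against E1 all 7 had positive log2 fold changes (median 0.78), and their part in the astrocyte values was not tested. The 12 markers of striatal projection neurons were high throughout, with a mean log2 CPM of 8.74 to 9.53. In tissue RNA, fewer astrocytes and less of a transcript per astrocyte cannot be told apart.

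Per length of transcript, the astrocyte genes spanned a wide range of levels in WT striatum. Levels between genes are given as RPKM, which divides CPM by the exon length in kilobases. Cst3, which encodes the protease inhibitor cystatin C, was highest at 884 ± 101 RPKM (SD, n = 7), followed by the glutamine synthetase gene Glul at 442 ± 78.0. Aldoc (aldolase C, 216 ± 10.6), Clu (clusterin, 205 ± 17.8), the glutamate transporter gene Slc1a2 (194 ± 20.6) and Mt1 (192 ± 38.7) came next, and neighbours in this order of 4 differed by less than the larger of their SDs. At the low end stood the intermediate filament gene Vim at 6.19 ± 1.51, Cbs at 4.29 ± 0.548, the cystine-glutamate exchanger gene Slc7a11 at 2.89 ± 0.569 and the hyaluronan receptor gene Cd44 at 0.540 ± 0.144. Gfap, the astrocyte intermediate filament, was in the middle of the order at 42.4 ± 10.9 RPKM. Apart from Mt2, every gene had counts in all 15 libraries.

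The metallothionein genes Mt1 and Mt2 encode small zinc-binding proteins and are related neighbours on chromosome 8 (build GRCm38), Mt2 at 94172664 to 94173568 and Mt1 at 94179082 to 94180327. Their coding sequences are shown so that the similarity of the pair can be seen beside their very different counts. They come from the GENCODE M21 transcripts and run 5′ to 3′ from the start codon to the stop codon. Capitals mark the positions at which the pair differ.
Mt1: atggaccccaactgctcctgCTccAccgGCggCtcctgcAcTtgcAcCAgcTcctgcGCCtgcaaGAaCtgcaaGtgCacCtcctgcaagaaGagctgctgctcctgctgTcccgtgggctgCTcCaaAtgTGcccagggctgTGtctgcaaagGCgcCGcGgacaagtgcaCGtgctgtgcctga
Mt2: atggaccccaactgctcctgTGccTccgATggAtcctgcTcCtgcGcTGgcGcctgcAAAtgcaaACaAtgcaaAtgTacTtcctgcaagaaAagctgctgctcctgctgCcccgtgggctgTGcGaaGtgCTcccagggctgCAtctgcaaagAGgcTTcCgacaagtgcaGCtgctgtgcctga
Of 186 coding bases, 148 were identical (79.6%) and 38 differed, and the longest identical run was 20 bases. Mt2 had 0 to 14 counts per library, and Mt1 had 865 to 8421. In the annotation, 432 of the 588 exon bases of Mt2 (73.5%) overlap Gm45774, a gene on the opposite strand that itself reached at most 0.921 CPM. The sources used here do not say whether counting used strand, so the low Mt2 count is reported as uncertain and no fold change is given for it.

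Each comparison of genotypes was tested with the quasi-likelihood test of edgeR over all 18278 genes, and a gene was called at a Benjamini-Hochberg adjusted p under 0.05. None of the 34 astrocyte genes was called in any of the 3 comparisons (0 of 34 each). The percentage of all genes called was 0.00547 for E1 against WT (1 gene, Dusp5), 0.0 for KI-96 against WT and 0.0 for KI-96 against E1. DESeq2 called 1 astrocyte gene (Kcnj10, E1 against WT) and 0 in the other 2 comparisons, with backgrounds of 0.29%, 0.361% and 1.13% of genes. limma-voom called 0 in each, with backgrounds of 0.0109%, 0.0% and 0.0%. The 95% interval of the log2 fold change lay within -1 and 1 for 31 of the 34 genes in E1 against WT, for 32 in KI-96 against WT and for 29 in KI-96 against E1.

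**Figure D1:**
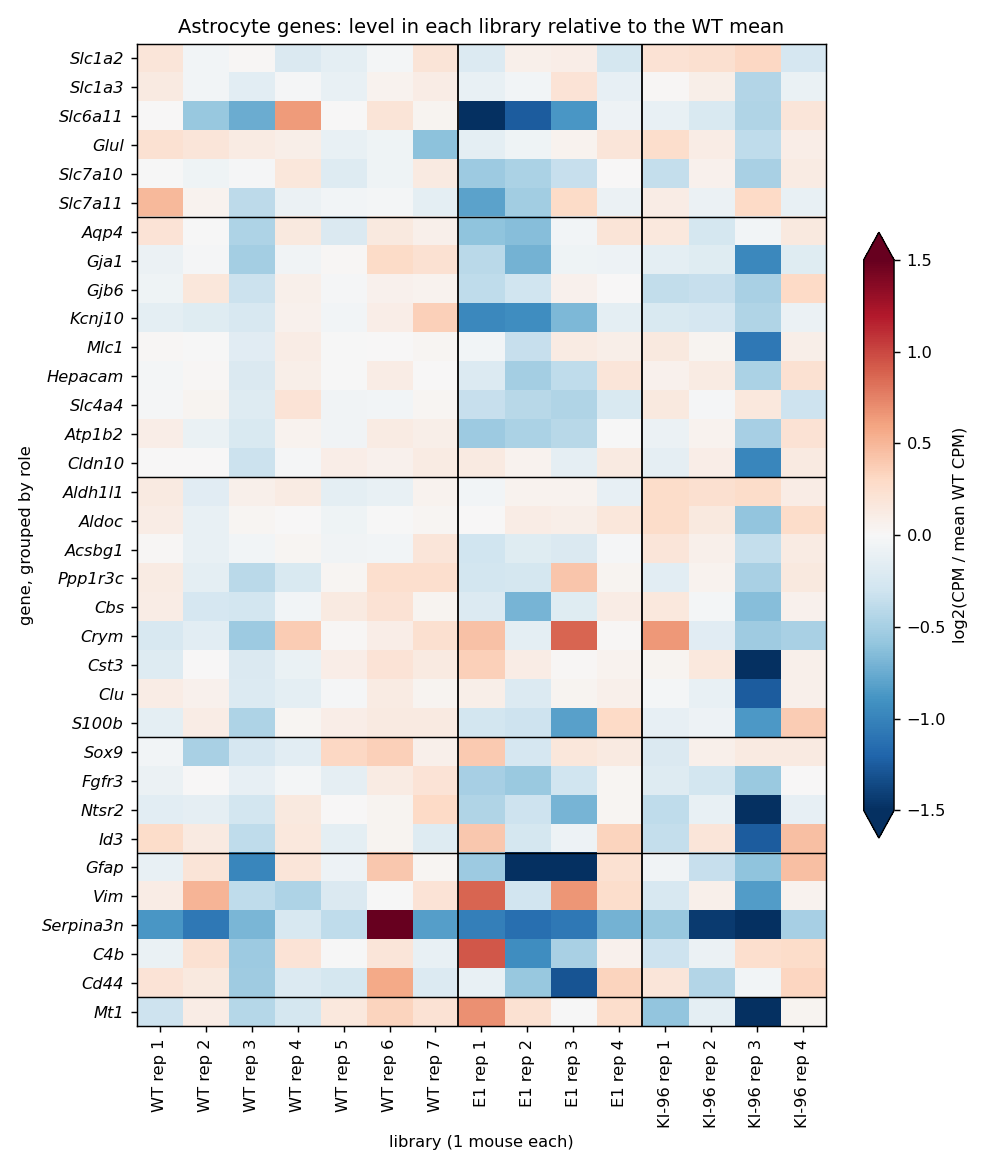
Level of each of the 34 tested astrocyte genes (vertical axis, grouped by role: uptake, channels and junctions, metabolism, fate and receptors, reactive, metallothionein) in each of the 15 libraries (horizontal axis), as log2 of CPM over the mean CPM of the 7 WT libraries, with blue below and red above that mean and colours saturating at 1.5. KI-96 replicate 3 is lower for Cst3, Clu, Mt1, Id3 and Ntsr2, and E1 replicates 1 to 3 are lower for Kcnj10, Slc6a11 and Gfap, while E1 replicate 4 is close to WT.

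At an unadjusted p under 0.05, 6 of the 34 genes (17.6%) were past it in E1 against WT, all with lower values in E1, against 8.75% of all genes (5.06% lower and 3.69% higher). In KI-96 against WT the count was 1 (2.94%), against 10.5% of all genes (5.8% higher and 4.68% lower). In KI-96 against E1 it was 6 (17.6%; 4 with higher and 2 with lower values in KI-96), against 14.3% of all genes (7.84% higher and 6.42% lower). These counts moved with single libraries, and so did those over all genes. Leaving out 1 E1 library changed the count of E1 against WT to 3 (replicate 1), 4 (replicate 2) or 11 (replicate 4). Of all genes, 1129 of 18632, 1119 of 18632 and 2579 of 18676 were past it in the same order. The Y-linked covariate changed the astrocyte count to 1, beside 475 of 18278 genes. In KI-96 against WT it was 5 without KI-96 replicate 4, beside 3337 of 18640 genes. In KI-96 against E1 it was 2 without E1 replicate 1, beside 1989 of 18632 genes. Without E1 replicate 4 it was 10, beside 2961 of 18676 genes. Both comparisons with WT share the same 7 WT libraries.

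The median log2 fold change of the 34 genes was -0.16 in E1 against WT (22 negative, 12 positive), -0.09 in KI-96 against WT (22 negative, 12 positive) and 0.03 in KI-96 against E1 (16 negative, 18 positive), beside -0.00, -0.01 and -0.00 over all genes. Without KI-96 replicate 3, 14 of the 34 were negative in KI-96 against WT, with a median of 0.02, and 8 were negative in KI-96 against E1, with a median of 0.15. Without KI-96 replicate 4 these medians were -0.20 and -0.10. Leaving out E1 replicate 1 gave a median of -0.069 in E1 against WT, and leaving out E1 replicate 2 gave -0.10. Leaving out the 3 libraries high in cortical markers, which left only replicates 1 and 4 in E1, gave a median of -0.15 in E1 against WT. In these fits with libraries left out, except that without E1 replicate 2, Mt2 passed the count filter too. Their medians are therefore over 35 genes, whereas the counts of negative values leave Mt2 out.

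**Figure D2:**
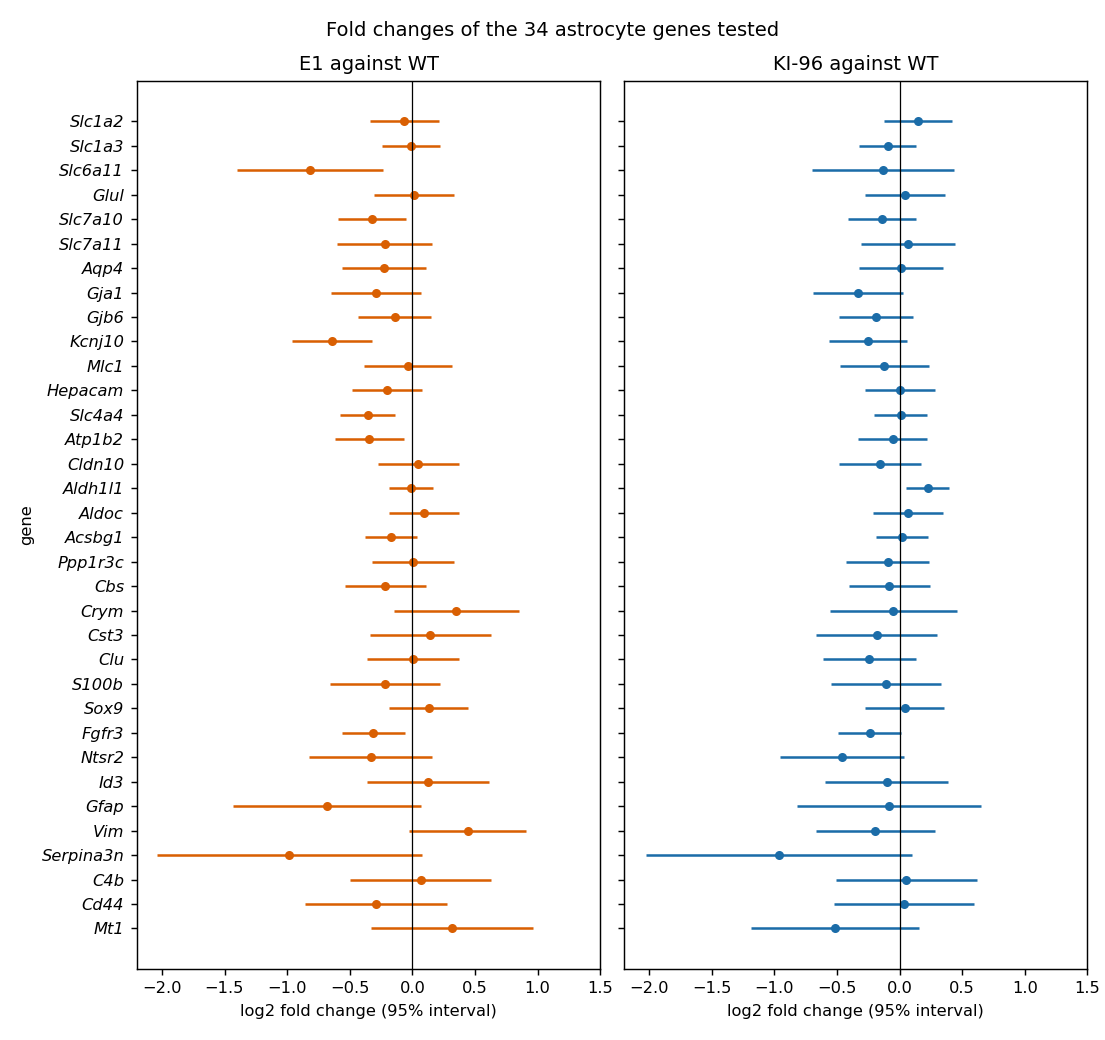
Log2 fold change (point) with its 95% interval (line) for the 34 astrocyte genes on the vertical axis, for E1 against WT (left) and KI-96 against WT (right), from the fit to all 15 libraries. Kcnj10 (-0.64), Slc6a11 (-0.82), Slc4a4 (-0.36), Atp1b2 (-0.34), Slc7a10 (-0.32) and Fgfr3 (-0.31) have intervals below 0 in E1, Aldh1l1 (0.23) has one above 0 in KI-96, and Serpina3n has the widest interval in both.

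Among the genes of transmitter uptake, those of the 2 glutamate transporters had no difference past the test. Slc1a2, which encodes GLT-1, had 2201 to 2913 CPM in WT with a median of 2493. E1 had 2206, 2692, 2739 and 2119 CPM, and KI-96 had 2954, 3015, 3171 and 2145 CPM. KI-96 replicates 1 to 3 lay above the highest WT library and replicate 4 below the lowest, and 3 E1 libraries lay within the WT range. Against WT it differed by -0.06 (SE 0.13, edgeR adjusted p = 0.898) in E1 and 0.15 (SE 0.13, adjusted p = 0.7103) in KI-96. The KI-96 value was 0.25 without KI-96 replicate 4 and 0.09 without KI-96 replicate 3. Slc1a3, which encodes the transporter GLAST, had 432 to 530 CPM in WT with a median of 474. E1 libraries had 444, 470, 557 and 441 CPM and KI-96 libraries 487, 511, 356 and 448 CPM, so these groups overlapped as well. It differed from WT by -0.01 in E1 and -0.10 in KI-96 on the log2 scale (SE 0.11 for each), with adjusted p of 0.985 and 0.780. Glul, whose enzyme turns the captured glutamate into glutamine, differed from WT by 0.01 in E1 and 0.04 in KI-96 on the log2 scale.

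Slc6a11, which encodes the GABA transporter GAT-3 (chromosome 6, 114131241 to 114249952), varied more. It had 142 to 369 CPM in WT with a median of 239. The E1 libraries had 83.3, 100.1, 129.8 and 226 CPM, and the KI-96 libraries 221, 203, 174.5 and 269 CPM. E1 replicates 1 to 3 lay below every WT library, and E1 replicate 4 lay within the WT range. The log2 fold change of E1 against WT was -0.82 (SE 0.28, edgeR adjusted p = 0.484), that of KI-96 against WT was -0.13 (SE 0.27, adjusted p = 0.889), and that of KI-96 against E1 was 0.69 (SE 0.30, adjusted p = 0.321). The lowest WT level, 142 CPM, was that of WT replicate 3, which also had high cortical markers. Without the 3 libraries high in cortical markers, which left only replicates 1 and 4 in E1, the E1 value was -0.72.

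The amino acid exchanger gene Slc7a10 had 24.3 to 31.3 CPM in WT with a median of 27.5. Its E1 libraries had 19.0, 20.0, 21.9 and 27.9 CPM, again with replicate 4 alone inside the WT range. In E1 it was 0.32 lower than in WT on the log2 scale (-0.32, SE 0.13, edgeR adjusted p = 0.519). In the annotation, 17.9% of its exon bases overlap Lrp3 on the opposite strand, which had 61.8 to 91.2 CPM, so the level of Slc7a10 is uncertain. Slc7a11, the last of the 6 uptake genes, had a log2 fold change of -0.22 in E1 and 0.06 in KI-96. By group of genes, 5 of 6 uptake genes had negative values in E1 against WT (median -0.14) and 3 of 6 in KI-96 against WT (median -0.03).

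Of the 9 genes for channels, junctions and ion and water handling, 8 had negative values in E1 against WT, with a median of -0.23. Kcnj10, which encodes the potassium channel Kir4.1 (chromosome 1, 172341210 to 172374085), had the smallest p of the 34 in that comparison. It had 210.5 to 319 CPM in WT with a median of 242. E1 had 128, 130.4, 155.5 and 225 CPM, and KI-96 had 212, 209, 182 and 234 CPM. E1 replicates 1 to 3 were lower than every WT library, whereas E1 replicate 4 lay within the WT range. The log2 fold change was -0.64 in E1 (SE 0.15, 95% interval -0.96 to -0.32, edgeR adjusted p = 0.383) and -0.25 in KI-96 (SE 0.15, adjusted p = 0.565). KI-96 differed from E1 by 0.39 (SE 0.17, adjusted p = 0.303).

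The call for Kcnj10 depended on the test and on 1 library. DESeq2 gave an adjusted p of 0.0221 for E1 against WT. Without E1 replicate 4, edgeR gave a log2 fold change of -0.85 for Kcnj10 (adjusted p = 0.00899) and -1.19 for Slc6a11 (adjusted p = 0.0305). Over all alternatives the adjusted p of E1 against WT ran from 0.00899 to 1.000 for Kcnj10 and from 0.0305 to 1.000 for Slc6a11. Those 2 were the astrocyte genes called without E1 replicate 4, where 1.38% of all genes were called. In KI-96 against E1 the same setting called 0 astrocyte genes and 1.02% of all genes. Without the 3 libraries high in cortical markers, the Kcnj10 value in E1 was -0.54 (edgeR adjusted p = 0.968). That setting left only replicates 1 and 4 in E1. With the presence or absence of Y-linked RNA as a covariate it was -0.49 (edgeR adjusted p = 1.000). That fit rests on the only WT library without Y-linked RNA.

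Slc4a4, which encodes a sodium bicarbonate cotransporter (chromosome 5, 88886818 to 89239653), was the 1 astrocyte gene whose E1 and WT libraries did not overlap, beside 0.799% of all genes without overlap in that direction and 0.892% in the other, where no astrocyte gene stood. It had 293.5 to 386 CPM in WT with a median of 330.2. The E1 levels were 263, 251, 246 and 285 CPM, all below the lowest WT library. KI-96 had 371, 331, 374.5 and 270.3 CPM, spread across both groups. In E1 the value was -0.36 relative to WT on the log2 scale (SE 0.10, edgeR adjusted p = 0.448) and 0.01 in KI-96 (SE 0.10, adjusted p = 0.985). Between KI-96 and E1 it was 0.37 (SE 0.11, adjusted p = 0.222), the smallest adjusted p of the astrocyte genes in any comparison.

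**Figure D3:**
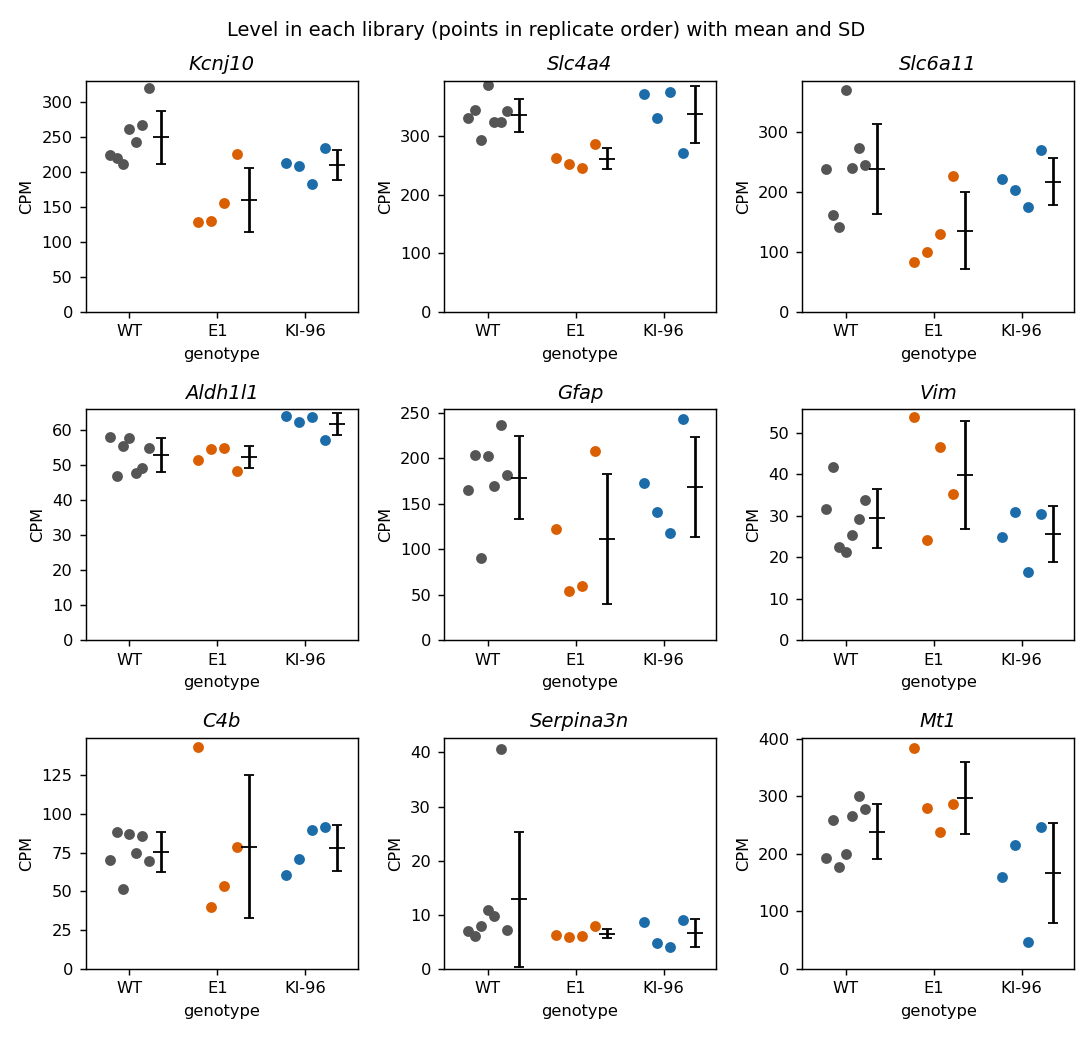
Level in CPM (vertical axes, starting at 0) of 9 astrocyte genes in each library, as points in replicate order for 7 WT, 4 E1 and 4 KI-96 libraries, with the mean and SD beside each group. For Slc4a4 the 4 E1 points lie below all WT points, for Kcnj10 and Slc6a11 E1 replicate 4 lies inside the WT range, and 1 WT library stands at 40.7 CPM for Serpina3n.

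Atp1b2, which encodes a beta subunit of the sodium pump, had 311 to 398 CPM in WT with a median of 378. The E1 libraries had 251, 264, 273 and 363 CPM, with replicate 4 inside the WT range, and KI-96 had 343, 378, 260 and 426 CPM. The log2 fold change in E1 was -0.34 (SE 0.13, edgeR adjusted p = 0.495), and in KI-96 it was -0.06. Without E1 replicate 4 the E1 value was -0.48 (edgeR adjusted p = 0.0879, the lowest of the alternatives, whose highest was 1.000).

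Aqp4, the water channel of astrocyte endfeet, had 72.0 to 114.5 CPM in WT with a median of 104. E1 had 65.0, 63.4, 96.4 and 113.5 CPM, and KI-96 had 110.2, 82.5, 96.2 and 109.8 CPM. E1 replicates 1 and 2 lay below the WT range, and replicates 3 and 4 lay within it. The log2 fold changes were -0.23 in E1 (SE 0.16, edgeR adjusted p = 0.679) and 0.01 in KI-96 (SE 0.16, adjusted p = 0.987). Leaving out single E1 libraries gave -0.12 (replicate 1), -0.11 (replicate 2) and -0.40 (replicate 4) in E1.

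Gja1, which encodes the gap junction protein connexin 43, had 139 to 242 CPM in WT with a median of 195. E1 had 149.5, 121, 189 and 188 CPM, and KI-96 had 179, 175, 100.9 and 175 CPM. KI-96 replicate 3 was the lowest of the 15 libraries. The log2 fold change was -0.29 in E1 (SE 0.17, edgeR adjusted p = 0.627) and -0.33 in KI-96 (SE 0.17, adjusted p = 0.507), and without KI-96 replicate 3 the KI-96 value was -0.17. Without E1 replicate 2 the E1 value was -0.18. The remaining 4 genes of this group were Gjb6 (connexin 30), Mlc1, its partner Hepacam and the claudin gene Cldn10. Their log2 fold changes lay between -0.20 and 0.05 in E1 and between -0.19 and 0.01 in KI-96. In KI-96 against WT, 6 of the 9 genes of the group were negative, with a median of -0.12.

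The 9 genes of metabolism and secretion had a median log2 fold change of 0.00 in E1 against WT (4 negative) and -0.08 in KI-96 against WT (6 negative). Aldh1l1, a folate enzyme often used to mark astrocytes, was the 1 astrocyte gene past an unadjusted p of 0.05 in KI-96 against WT. It had 46.7 to 58.1 CPM in WT with a median of 54.7. E1 had 51.3, 54.6, 54.9 and 48.4 CPM, and KI-96 had 63.8, 62.2, 63.6 and 57.0 CPM. KI-96 replicates 1 to 3 lay above the WT range and replicate 4 within it. The log2 difference of KI-96 was 0.23 (SE 0.08, edgeR adjusted p = 0.365) against WT and 0.24 (SE 0.09, adjusted p = 0.279) against E1. All 4 KI-96 libraries lay above all 4 E1 libraries, beside 2.29% of all genes without overlap in that direction and 2.5% in the other, where no astrocyte gene stood. No astrocyte gene was free of overlap between KI-96 and WT, beside 0.635% of all genes in the higher and 0.651% in the lower direction. In the annotation, 11.0% of the exon bases of Aldh1l1 overlap a gene on the opposite strand that reached at most 0.118 CPM. With the presence or absence of Y-linked RNA as a covariate, the Aldh1l1 value against WT was 0.09.

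Crym, which encodes the thyroid hormone binding protein mu-crystallin and marks a set of striatal astrocytes, varied widely within each group. It had 88.6 to 169 CPM in WT with a median of 132. E1 had 176, 117, 237 and 131.5 CPM, and KI-96 had 204, 115, 89.3 and 92.8 CPM. The highest levels were those of E1 replicate 3 and KI-96 replicate 1, and the groups overlapped. The log2 fold changes were 0.35 in E1 (SE 0.24, edgeR adjusted p = 0.666) and -0.05 in KI-96 (SE 0.24, adjusted p = 0.954). Without E1 replicate 3 the E1 value was 0.12. The other 7 were Aldoc, the acyl-CoA synthetase gene Acsbg1, the glycogen-targeting gene Ppp1r3c, the homocysteine enzyme gene Cbs, Cst3, Clu and the calcium-binding protein gene S100b. In E1 they had log2 fold changes between -0.22 and 0.14, and in KI-96 between -0.24 and 0.07.

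Sox9, a transcription factor of astrocyte fate, differed from WT by 0.13 in E1 and by 0.04 in KI-96 on the log2 scale (SE 0.15 for each). Fgfr3, a growth factor receptor of astrocytes, had 97.5 to 124 CPM in WT with a median of 105. E1 had 75.7, 72.9, 87.1 and 109 CPM, and KI-96 had 93.7, 88.6, 72.9 and 107.5 CPM. In each mutant group 3 libraries lay below the WT range and 1 within it. The log2 fold changes were -0.31 (SE 0.12, edgeR adjusted p = 0.500) in E1 and -0.24 (SE 0.12, adjusted p = 0.500) in KI-96. In the annotation, 13.9% of its exon bases overlap a gene on the opposite strand that reached at most 1.22 CPM.

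Ntsr2, a neurotensin receptor gene, had 126 to 187 CPM in WT with a median of 153. E1 had 111, 123, 94.2 and 156 CPM, and KI-96 had 117, 141, 44.7 and 140.0 CPM. The value of KI-96 replicate 3 was below that of every other library. The log2 fold changes were -0.33 (SE 0.23, edgeR adjusted p = 0.679) in E1 and -0.46 (SE 0.23, adjusted p = 0.502) in KI-96. Without KI-96 replicate 3 the KI-96 value was -0.20. For Id3, an inhibitor of basic helix-loop-helix factors, the values were 0.12 in E1 and -0.10 in KI-96.

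Of the 5 genes known from reactive astrocytes, 3 had negative and 2 positive values in each comparison with WT, with a median of -0.29 in E1 and -0.08 in KI-96. Gfap (chromosome 11, 102887336 to 102900912) had 91.1 to 237 CPM in WT with a median of 182. E1 had 123, 53.9, 60.1 and 209 CPM, and KI-96 had 173, 141, 118 and 244 CPM. The highest of the 15 was KI-96 replicate 4, which also had the highest thalamus and septum markers. E1 replicates 2 and 3 were the lowest of all 15 libraries, followed by WT replicate 3, and these 3 are the libraries with high cortical markers. In E1 the value was -0.68 relative to WT (SE 0.35, 95% interval -1.43 to 0.07, edgeR adjusted p = 0.604) and -0.08 in KI-96 (SE 0.34, adjusted p = 0.947). Without those 3 libraries, which left only replicates 1 and 4 in E1, the E1 value was -0.23. Without E1 replicate 4 it was -1.18 (edgeR adjusted p = 0.0875, with 0.0875 to 1.000 over the alternatives).

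**Figure D4:**
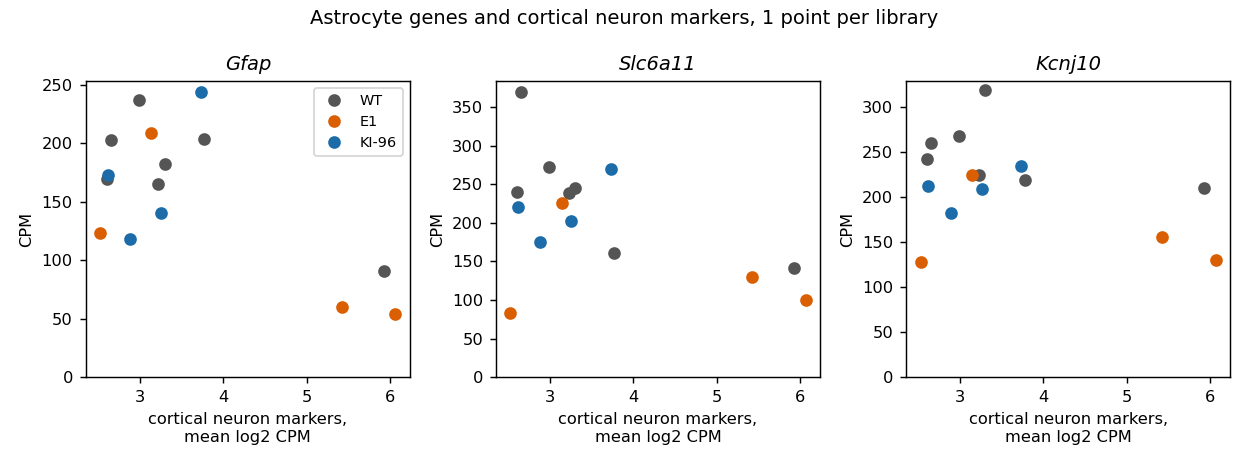
CPM of Gfap, Slc6a11 and Kcnj10 (vertical axes, starting at 0) against the mean log2 CPM of 15 cortical excitatory neuron markers (horizontal axes), 1 point per library, coloured by genotype. The 3 libraries above 5 on the horizontal axis have the 3 lowest Gfap levels, whereas E1 replicate 1, at 2.53, has the lowest Slc6a11 (83.3 CPM) and Kcnj10 (128 CPM) levels.

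Vim, which encodes vimentin, had 21.3 to 41.8 CPM in WT with a median of 29.2. E1 had 53.8, 24.1, 46.5 and 35.2 CPM, and KI-96 had 25.0, 30.9, 16.4 and 30.4 CPM. E1 replicates 1 and 3 lay above every WT library and the other two within the WT range. The log2 fold changes were 0.44 in E1 (SE 0.22, edgeR adjusted p = 0.591) and -0.19 in KI-96 (SE 0.23, adjusted p = 0.785). Against E1, KI-96 had a value of -0.64 (SE 0.25, adjusted p = 0.285). The mean log2 CPM of 10 vessel markers, cells that also express Vim, was 4.37 to 4.79 in E1, 4.12 to 4.85 in WT and 4.20 to 4.77 in KI-96. The mean log2 CPM of 8 markers of ependymal cells, which line the ventricle and also express Vim, was 3.30, 1.94, 2.99 and 3.10 in the E1 libraries, 1.83, 2.29, 1.42 and 2.26 in KI-96 and 1.64 to 3.00 in WT. E1 replicate 2 and KI-96 replicate 3 were lowest of their groups for Vim and for these markers. All 8 had positive log2 fold changes in E1 against WT (median 0.34) and negative ones in KI-96 against E1 (median -0.82). The part of either cell type in the Vim values was not tested. Without E1 replicate 1 the Vim value in E1 was 0.26, and without KI-96 replicate 3 that in KI-96 was -0.03.

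C4b, which encodes complement component 4, had 51.6 to 88.7 CPM in WT with a median of 75.0. E1 had 144, 39.7, 53.8 and 78.9 CPM, and KI-96 had 60.7, 71.2, 89.96 and 91.5 CPM. The E1 group held both the highest and the lowest of the 15 libraries. Its log2 fold change was 0.07 in E1 (SE 0.26, edgeR adjusted p = 0.955), and -0.39 without E1 replicate 1. In KI-96 it was 0.05 (SE 0.26, adjusted p = 0.956).

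Serpina3n, a serine protease inhibitor gene, had 6.08 to 10.9 CPM in 6 WT libraries and 40.7 CPM in WT replicate 6. E1 had 6.30, 5.84, 6.12 and 7.82 CPM, and KI-96 had 8.66, 4.74, 3.99 and 9.04 CPM. Both mutant groups lay within or below the range of those 6 WT libraries. In E1 the value was -0.98 relative to WT (SE 0.50, edgeR adjusted p = 0.599) and -0.96 in KI-96 (SE 0.50, adjusted p = 0.512). Without WT replicate 6 these values were -0.33 and -0.31. Cd44 had a log2 fold change of -0.29 in E1 and 0.03 in KI-96.

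Mt1 had 177 to 300.1 CPM in WT with a median of 258. E1 had 385, 279, 239 and 286 CPM, and KI-96 had 159, 215, 47.2 and 246 CPM. E1 replicate 1 was the highest of all libraries and KI-96 replicate 3 the lowest. The log2 fold changes were 0.32 in E1 (SE 0.30, edgeR adjusted p = 0.764) and -0.52 in KI-96 (SE 0.31, adjusted p = 0.579). Against E1, KI-96 had a value of -0.83 (SE 0.35, adjusted p = 0.303). Without KI-96 replicate 3 the value of KI-96 against WT was -0.21 and that of KI-96 against E1 was -0.52, and without E1 replicate 1 that of E1 against WT was 0.17.

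E1 replicate 1 and the 3 libraries with high cortical markers had lower levels across the set. Taking each library's log2 CPM against the median of the other 14, 24 of the 34 genes were below in E1 replicate 1 (median -0.24), 29 in E1 replicate 2 (median -0.35), 22 in E1 replicate 3 (median -0.12) and 30 in WT replicate 3 (median -0.28). In E1 replicate 4, 6 of the 34 were below, with a median of 0.10. The mean log2 CPM of 12 oligodendrocyte markers was 7.87, 7.43 and 7.22 in E1 replicates 1 to 3, 8.602 in E1 replicate 4 and 7.89 to 8.46 in WT. In KI-96 it was 8.12, 8.03, 7.71 and 8.36, so it was low outside E1 as well. All 12 had negative log2 fold changes in E1 against WT (median -0.38), and 10 did in KI-96 against WT (median -0.15). Kcnj10 was likewise below the WT range in E1 replicates 1 to 3 and not in replicate 4. The part of oligodendrocytes in the Kcnj10 values was not tested. Whether the makeup of the dissected tissue moved the astrocyte genes was not tested.

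In KI-96 replicate 3, 27 of the 34 genes were below the median of the other libraries, with a median deviation of -0.48. The deviation followed the length of the gene's longest annotated transcript. The 17 genes with the shortest transcripts (860 to 2880 bases) were all below, with a median of -0.84, and of the 17 with the longest (2926 to 11595 bases) 10 were below, with a median of -0.28. Mt1 deviated by -2.41, Cst3 by -1.70, Id3 by -1.32 and Clu by -1.30, whereas the long transcripts of Slc7a11, Slc1a2 and Slc4a4 deviated by 0.39, 0.32 and 0.21. Across the 34 genes Spearman's rho between length and deviation was 0.79, and across 10725 genes with a mean log2 CPM above 3 it was 0.698. In the other 14 libraries rho over the 34 genes lay between -0.42 and 0.45. These are correlations across genes of 1 library, and genes are not independent replicates.

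**Figure D5:**
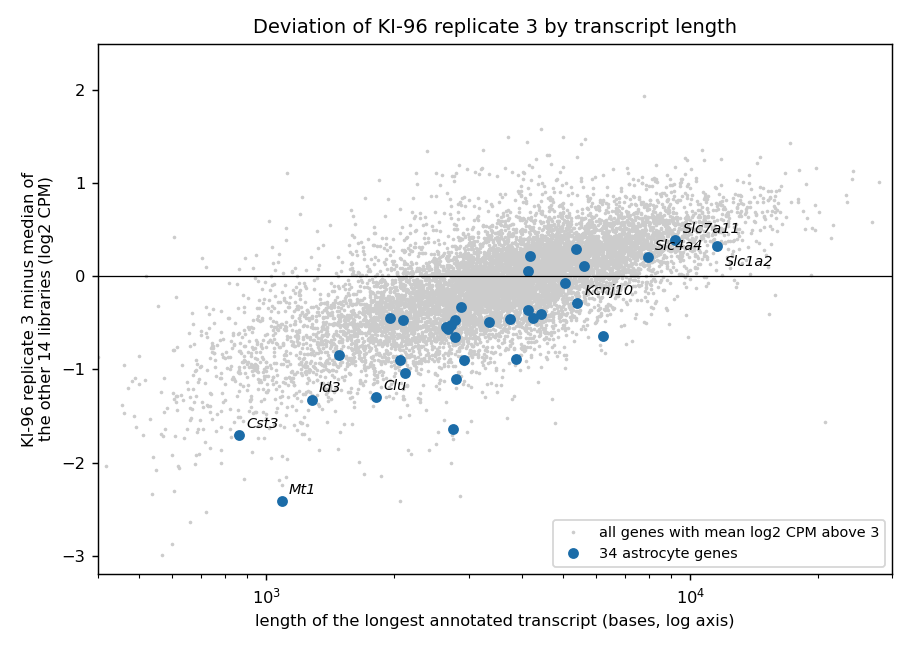
Deviation of KI-96 replicate 3 from the median of the other 14 libraries (vertical axis, log2 CPM) against the length of the longest annotated transcript in bases (horizontal axis, logarithmic), for the 34 astrocyte genes (blue) and all genes with a mean log2 CPM above 3 (grey). Short transcripts such as Cst3 and Mt1 lie lowest and long ones such as Slc1a2 and Slc7a11 lie above 0, in the astrocyte genes as in the grey background.

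Some pairs of astrocyte genes varied together over the 15 mice. In all, 9 pairs were examined with log2 CPM and permutation tests, with p adjusted over the 9 pairs. The connexin genes Gja1 and Gjb6 had a Pearson r of 0.70 (permutation p = 0.0022, adjusted 0.0099) and a Spearman rho of 0.64 (permutation p = 0.0129, adjusted 0.0289), and r was 0.58 without the 2 libraries farthest from the median of Gja1. Slc7a10 and Slc6a11 had r = 0.74 (permutation p = 0.00151, adjusted 0.0099) and rho = 0.68 (permutation p = 0.00647, adjusted 0.0289), and r = 0.69 without the 2 farthest. Gfap and Aqp4 had r = 0.68 (permutation p = 0.00607, adjusted 0.0182) and rho = 0.69 (permutation p = 0.00549, adjusted 0.0289), and r = 0.76 without the 2 farthest. These libraries differ in cortical markers and genotype, so the values were also taken within the 7 WT mice. That removes the difference in genotype but not that in cortical markers, which were high in WT replicate 3. Within WT, r was 0.78 for the connexins (exact permutation p = 0.0587) and 0.41 for Slc7a10 and Slc6a11 (exact permutation p = 0.351). For Gfap and Aqp4 it was 0.81 (exact permutation p = 0.0429). None passed after adjustment (adjusted 0.176, 0.530 and 0.176). Spearman's rho within WT was 0.46, 0.29 and 0.29 in the same order (exact permutation, adjusted p = 0.834 for each).

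Aqp4 and Mlc1 had rho = 0.65 (permutation p = 0.0102, adjusted 0.0289) over all 15 libraries, while r was 0.28 (permutation p = 0.314, adjusted 0.707) and 0.78 without KI-96 replicate 3. Within WT they had the highest values of the 9 pairs, r = 0.85 (exact permutation p = 0.0129, adjusted 0.116) and rho = 0.82 (exact permutation p = 0.0341, adjusted 0.307). The glutamate transporter genes Slc1a2 and Slc1a3 had r = 0.15 (permutation p = 0.616, adjusted 0.801), with rho = 0.37 (permutation p = 0.178, adjusted 0.320), and r = 0.71 without KI-96 replicate 3. The filament genes Gfap and Vim had r = 0.01 (permutation p = 0.975, adjusted 0.975) and rho = 0.14 (permutation p = 0.621, adjusted 0.798). The remaining 3 pairs did not pass by either measure.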

How the data were processed

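For 15 striatal libraries the authors deposited raw counts of reads per gene, whole numbers whose totals differ between libraries. STAR, HTSeq, DESeq2 1.24.0 and GRCm38 are named in the submitters' processing notes, with no role for each. Symbols, exon lengths and overlaps came from GENCODE M21 (GRCm38), matched without the version of the identifier.

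Genes were filtered by group in edgeR 4.0.16 (minimum count 10), scaled by the trimmed mean of M-values and fitted with a robust quasi-likelihood model over all 15 libraries with genotype as the factor. Tests were two-sided, with Benjamini-Hochberg adjustment over 18278 genes and a threshold of 0.05. CPM used normalized library sizes, log2 CPM a prior count of 2, and RPKM the union of exons. DESeq2 1.42.0, limma-voom (limma 3.58.1), the normalization of DESeq2, no filter, single comparisons, covariates, the replicate block and each library left out were the alternatives. The procedure was tested on simulated data with known changes, and many of them were missed. Over the 3 comparisons it recovered 23.9 to 32.8% of 1.5-fold, 55.2 to 56.7% of 2-fold and 71.2 to 86.4% of 3-fold changes. Correlations used 100000 permutations, or all orders within WT, two-sided.

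No 2 libraries of a group were duplicates: over 33 pairs, chi-square per degree of freedom was at least 7.78. Each library carries its own replicate number within its group. The members and lists were chosen with earlier results of these data known. Values per library were given for called genes, the 5 with the smallest p in each comparison, genes without overlap and 12 further genes; the remaining genes are given by range or single values.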

Additional observations from a re-analysis of the deposited data

Results flagged for a closer look

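Within each group, the highest and lowest library of each of the 34 genes were compared with Dixon's test at the 95% level. Chance alone gives about 1 in 20 such groups, and 6 of 102 were past it. KI-96 replicate 3, the library in which short transcripts were low, was the low extreme of its group for Gja1 (100.94 CPM), Mlc1 (84.067 CPM) and Cst3 (360.18 CPM). Mlc1 and Cst3 are among the 17 genes with the shortest transcripts, but Gja1, at 3889 bases, is among the 17 with the longest. KI-96 replicate 4 was the high extreme for Gjb6 (44.3 CPM). That library also had the highest thalamus and septum markers, whose part was not tested. WT replicate 3, which had high cortical markers, was the low extreme for Cldn10 (21.575 CPM), and WT replicate 6 was the high extreme for Serpina3n (40.657 CPM).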

How the results depend on the processing

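With 4 mutant mice per group, 3 of the 34 astrocyte genes tested in E1 against WT and 2 in KI-96 against WT had 95% intervals that reached beyond a log2 fold change of 1 in size, so differences of that size were not excluded for them. The number of all genes called in E1 against WT was 1, and it was 53 with DESeq2, 2 with limma-voom and 0 with no filter, with either covariate, with only the 2 groups, without the 3 libraries high in cortical markers and without WT replicates 5 to 7. It was 0 to 257 when single libraries were left out, with 257 without E1 replicate 4. In KI-96 against WT it was 66 with DESeq2, 1 with no filter and 0 to 11 with single libraries left out. In KI-96 against E1 it was 206 with DESeq2, 1 with the Y-linked covariate, 3 with no filter and 0 to 190 with single libraries left out. Astrocyte genes called in E1 against WT numbered 1 with DESeq2 and 0 to 2 with single libraries left out, and 0 in each other setting and comparison. The cause of these differences was not tested.

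Whether the replicate numbers pair the mice could not be settled. Same-numbered libraries had correlations of their deviations from -0.10 to 0.19. Their highest value was 0.19 in E1 against WT, 0.18 in KI-96 against WT and 0.19 in KI-96 against E1. For libraries with different numbers the highest was 0.54, 0.12 and 0.11 in that order. With the replicate block, 0 genes and 0 astrocyte genes were called in each comparison. In that fit the direction turned for C4b (-0.0027) and Slc1a3 (0.0078) in E1 against WT, Gfap (0.0048) in KI-96 against WT, and C4b (0.10) and Serpina3n (-0.037) in KI-96 against E1.

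Other changes of direction were found too, most of them in small values but some reaching -0.39 and 0.45 for C4b. In E1 against WT, C4b was -0.083 with limma-voom and -0.39 to 0.29 with single libraries left out, and Slc1a3 was 0.0023 without WT replicates 5 to 7 and -0.094 to 0.026 with single libraries left out. In KI-96 against WT, the Y-linked covariate gave -0.20 for Aqp4, 0.19 for Crym, 0.032 for Gfap and -0.034 for Slc1a2. The cortical covariate gave -0.018 for Aqp4 and -0.030 for C4b, and leaving out the 3 cortical libraries gave -0.061 and -0.025. Aqp4 was -0.0078 with no filter. Without WT replicates 5 to 7, Crym was 0.046 and Gfap 0.023. With single libraries left out, Aqp4 was -0.054 to 0.089, C4b -0.032 to 0.16, Crym -0.39 to 0.080, Gfap -0.32 to 0.056 and Slc1a3 -0.16 to 0.0020. In KI-96 against E1, C4b was 0.14 with limma-voom, and Serpina3n was -0.18 with the cortical covariate, -0.046 with limma-voom and -0.096 without the 3 cortical libraries, where Slc1a3 was 0.023. With single libraries left out, C4b was -0.23 to 0.45, Gja1 -0.16 to 0.12, Serpina3n -0.18 to 0.20 and Slc1a3 -0.15 to 0.012.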

Other observations

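Related lists of astrocyte genes were counted in the same fit, and of their 76 tested genes 0 were called by edgeR in each of the 3 comparisons. At an unadjusted p under 0.05 there were 14 in E1 against WT (18.4%, against 8.75% of all genes), 6 in KI-96 against WT (7.89%, against 10.5%) and 11 in KI-96 against E1 (14.5%, against 14.3%). DESeq2 called Ptgs2 in E1 against WT (1 of 76, or 1.32%, against 0.29% of all genes), 0 in KI-96 against WT (0.361% of all genes), and Gpr37l1 and Il6st in KI-96 against E1 (2.63%, against 1.13%). limma-voom called 0. Agt and Stat3 were chosen for mention after their values were seen. Of 30 other astrocyte genes, 22 had negative values in E1 against WT (median -0.08) and 17 in KI-96 against WT (median -0.01). The zinc transporter gene Slc39a12 had a log2 fold change of -0.51 (SE 0.18) in E1 and the extracellular matrix gene Itih3 one of -1.11 (SE 0.40). Agt, which encodes angiotensinogen, had 3.09 to 5.11 CPM in E1 replicates 1 to 3 and 54.2 CPM in E1 replicate 4, against 7.70 to 79.2 CPM in WT and 23.3 to 65.1 CPM in KI-96. Its lowest WT level was that of WT replicate 3.

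Of 11 genes reported in astrocytes after neuroinflammatory stimuli, 9 had positive values in E1 against WT (median 0.53) and 9 in KI-96 against WT (median 0.18). The other lists of reactive genes did not lean the same way. Of 6 tested genes common to reactive astrocytes, 3 were positive in E1 (median 0.01) and 3 in KI-96 (median -0.01). Of 9 tested genes of astrocytes after injury, 5 were positive in E1 (median 0.13) and 1 in KI-96 (median -0.22). The interferon-inducible genes Iigp1 and Gbp2 had log2 fold changes of 2.34 (SE 0.64) and 1.35 (SE 0.42) in E1. Iigp1 had 11.2, 2.70, 0.319 and 1.21 CPM in the 4 E1 libraries and 0.492 to 1.16 CPM in WT, and Gbp2 had 12.6, 5.73, 1.65 and 2.05 CPM in E1 and 1.29 to 2.84 CPM in WT. Without E1 replicate 1, which also had the highest C4b, Vim and Mt1 levels, the values were 0.88 for Iigp1 and 0.54 for Gbp2. Ptgs2 is listed among genes of astrocytes after injury and is also induced in active cortical neurons. It had 8.59 and 13.2 CPM in E1 replicates 2 and 3 and 1.02 and 1.89 CPM in replicates 1 and 4. WT had 0.834 to 3.23 CPM, with the highest level in WT replicate 3. The E1 value of Ptgs2 was 2.09 (SE 0.53). It was 0.31 without the 3 libraries high in cortical markers, with only replicates 1 and 4 left in E1. The part of cortical tissue in these values was not tested. The cytokine receptor genes Il6st and Lifr, of the pathway that acts through Stat3, had values of -0.35 (SE 0.11) and -0.51 (SE 0.19) in E1, and Stat3 itself 0.02 (SE 0.08). They had the 2 smallest p of 8 genes listed for this pathway. Of those 8, 5 were negative and 3 positive in E1 against WT (median -0.01), with Socs3 highest at 0.40. In KI-96 against WT 4 were negative and 4 positive (median 0.02).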
